A study of Mus musculus with 6 samples.

Results

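The protein kinase C (PKC) genes are described here in B16F10, a pigmented mouse melanoma cell line of C57BL/6 origin. The 8 genes Prkca, Prkcb, Prkcd, Prkce, Prkch, Prkci, Prkcq and Prkcz were found by NCBI Gene identifier, 8 of the 16315 genes in the table. The family was selected on the measured difference of Prkcq between the groups, so the Prkcq difference is given as a description with no test. The remaining members were taken as its relatives, in the same contrast. Vehicle libraries (n = 3) came from cells given 0.05% DMSO, and SAS libraries (n = 3) from cells given SAS, an agent the labels do not spell out, for 24 h (500, with the unit given as μm). The title of the series names xCT, a cystine importer. Its table names the vehicle columns 0 h and the SAS columns 24 h, whereas the protocol describes the same incubation for both, so a day of culture and SAS cannot be told apart if 0 h means cells collected earlier.

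PKC enzymes are serine/threonine kinases that relay receptor signals. Phospholipase C cleaves a membrane lipid into diacylglycerol, which recruits PKC to membranes, and IP3, which releases calcium. Conventional isoforms (such as alpha and beta) respond to calcium and diacylglycerol, calcium-independent isoforms (delta, epsilon, eta, theta) to diacylglycerol alone, and atypical isoforms (iota, zeta) to neither, being held instead by protein partners. In human melanocytes PKC-beta is known to activate tyrosinase. PKC-theta, the product of Prkcq, is best known from T cells, where it links the antigen receptor to NF-kappaB, and from skeletal muscle.

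Values are FPKM, fragments scaled to transcript length and library size, so levels can be set beside each other between genes, and each is a share of its library. FPKM sums were 590238 to 617275 per library, and 9746 to 9826 genes reached 1 FPKM. The fragments behind the values are unknown, and 3 libraries a group limit the precision. All 8 pigment cell markers were present, summing to 7464 to 8411 FPKM in vehicle and 8833 to 10730 FPKM in SAS, and 6 of 8 rose by the limma fit described below, against 18.9% of all genes tested. Of 10 T cell markers, 7 had a row and 6 of these stayed below 0.5 FPKM in every library. The exception, the kinase gene Lck, had 1.66 ± 0.275 FPKM (SD, n = 3, as for all means here) in vehicle and 1.657 ± 0.142 FPKM in SAS. Summed T cell markers were 1.43 to 1.96 FPKM in vehicle and 1.59 to 1.85 FPKM in SAS. Of 7 other leukocyte markers, 5 had a row, summing to 0.70 to 0.88 FPKM in vehicle and 1.18 to 1.34 FPKM in SAS, with Lyz2 rising from 0.47 ± 0.0173 to 0.86 ± 0.114 FPKM. Of 7 skeletal muscle markers, 3 had a row, summing to 0.53 to 0.58 FPKM and 0.79 to 1.28 FPKM, with Ckm rising from 0.493 ± 0.0252 to 0.893 ± 0.261 FPKM and the muscle myosin Myh4 listed at 0. Both lists were higher in SAS while Prkcq was lower, and their part in any result was not tested.

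Prkcq (NCBI Gene 18761), encoding PKC-theta, stood at 24.16, 27.94 and 23.04 FPKM in the vehicle libraries and at 8.11, 9.65 and 8.97 FPKM in the SAS libraries. Every SAS library lay far below every vehicle library. The means were 25.05 ± 2.57 and 8.91 ± 0.772 FPKM, so SAS cells held 35.6% of the vehicle level, a log2 fold change of -1.39 (SE 0.08) on the log2(FPKM + 1) scale. Of 10615 genes tested, 1 had a lower log2 fold change on this scale, Cyp26b1, named below. This scale understates falls of low genes, and the place of Prkcq was not computed in other settings. In these bulk libraries, fewer cells with the transcript and less of it per cell cannot be told apart.

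Prkci (NCBI Gene 18759), encoding the atypical PKC-iota of the cell polarity complex, read 8.56, 8.15 and 7.89 FPKM in vehicle and 6.03, 6.75 and 6.01 FPKM in SAS. The groups did not overlap. Prkci fell from 8.2 ± 0.338 to 6.26 ± 0.422 FPKM, 76.4% of the vehicle level, with a log2 fold change of -0.34 and an SE of 0.07 (adjusted p = 0.00334 by limma, Benjamini-Hochberg over all genes tested). Its direction and call held in all 17 alternative settings. Of the 8 members, 6 passed the filter of a mean of at least 0.5 FPKM, and among the 5 other than Prkcq, 1 fell and 0 rose. Among the uncalled 4 the lowest unadjusted p was 0.184, for Prkce. Over all 10615 genes tested, 37.4% changed, 18.9% upward and 18.5% downward, so this count is near the background. In 2 of the 6 tested members all SAS libraries lay below all vehicle libraries, against 24.9% of all genes. The contrast was used to choose the family, and nothing is read from these counts.

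**Figure D1:**
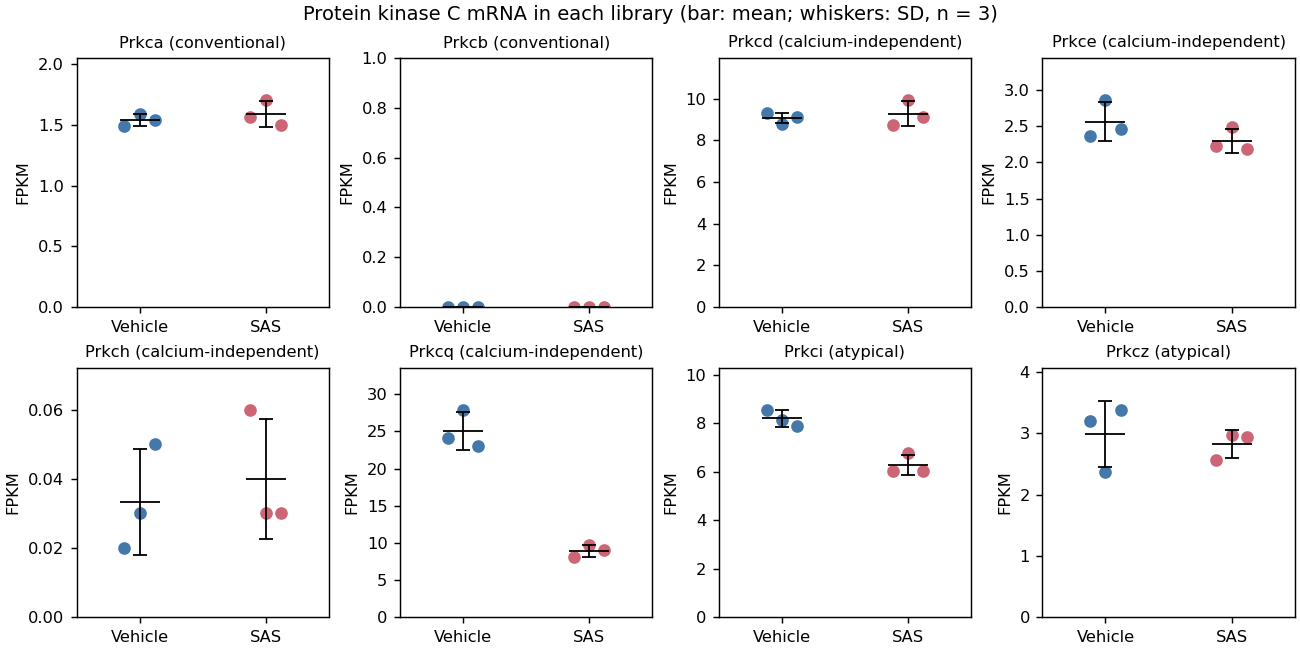
FPKM (linear axis from 0, a scale of its own for each gene) of the 8 members in the 3 vehicle and 3 SAS libraries; points are libraries, the horizontal bar is the mean and whiskers are the SD. Prkcq and Prkci show SAS points wholly below the vehicle points, the other genes overlap, and Prkcb lies at 0 throughout.

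The stretches directly before the annotated starts of the pair with separated groups are shown because they are the members whose mRNA was lower in every SAS library. Both are the 250 bases upstream in RefSeq on GRCm38.p6, on the plus strand. The authors used a build not given in the sources used here. Capitals mark matches, on either strand, to GGGCGG (GC box, bound by SP family factors) and TGANNNNGC. In Prkci a match to each overlaps. TGANNNNGC is a loose form of the core of the antioxidant response element, which NRF2 binds with MAF proteins. It allows any base after TGA, and every marked match has G there.
Prkcq, chr2:11172132-11172381: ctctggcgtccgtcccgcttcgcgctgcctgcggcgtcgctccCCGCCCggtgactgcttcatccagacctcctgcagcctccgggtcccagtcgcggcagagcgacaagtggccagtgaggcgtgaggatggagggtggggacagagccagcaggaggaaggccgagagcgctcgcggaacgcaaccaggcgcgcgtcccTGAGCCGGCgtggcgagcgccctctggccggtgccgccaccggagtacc
Prkci, chr3:30995521-30995770: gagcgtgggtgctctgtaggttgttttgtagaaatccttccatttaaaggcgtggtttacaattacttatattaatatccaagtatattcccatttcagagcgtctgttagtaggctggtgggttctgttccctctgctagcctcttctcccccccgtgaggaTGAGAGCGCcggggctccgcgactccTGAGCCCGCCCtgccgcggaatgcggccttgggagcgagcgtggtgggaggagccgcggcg
The Prkcq stretch is 72.4% G and C and the Prkci stretch 56.4%, against a median of 52.4% over 32851 promoter stretches of the same length. Each holds 1 GC box, which 32.7% of all stretches hold. The letters TGANNNNGC occur once before Prkcq and in 2 places before Prkci, and 35.2% of all stretches hold them. Neither window has a match to CATGTG or CACGTG (E-boxes), TGACGTCA (cyclic AMP response element), CCAAT or TATAAA, which occur in 12.3%, 6.02%, 1.55%, 33.9% and 12.4% of stretches. Members that were not called hold such letters too. Before their annotated starts the GC box occurs in Prkca, Prkcb, Prkcd and Prkcz, with 4 matches at 1 Prkcd start, and TGANNNNGC in Prkcd and Prkcz. Matches are letters only and were not tested for binding. RefSeq promoters were matched for 6 of the 8 members.

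The other calcium-independent, diacylglycerol-responsive isoforms had overlapping groups. Prkcd encodes PKC-delta, known for roles in apoptosis. It read 9.29, 8.79 and 9.09 FPKM in vehicle and 8.75, 9.95 and 9.12 FPKM in SAS, with overlapping groups. Its log2 fold change was 0.03 (95% interval -0.12 to 0.18, limma adjusted p = 0.762), and -0.0175 without SAS replicate 2. Prkce encodes PKC-epsilon, an isoform with transforming activity in rodent fibroblasts. It read 2.36, 2.87 and 2.46 FPKM in vehicle and 2.23, 2.49 and 2.18 FPKM in SAS. The groups overlapped, with a log2 fold change of -0.11 (95% interval -0.28 to 0.06, limma adjusted p = 0.287), and -0.0484 without Vehicle replicate 2. Prkch, encoding the epithelial isoform PKC-eta, was nearly undetected at 0.02 to 0.05 FPKM in vehicle and 0.03 to 0.06 FPKM in SAS. With values deposited to 2 decimals, no difference could be read at that level, and Prkch was not tested.

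Conventional isoforms were low in both groups. Prkca, encoding the widely expressed PKC-alpha, read 1.49, 1.59 and 1.54 FPKM in vehicle and 1.57, 1.71 and 1.5 FPKM in SAS. The groups overlapped, with a log2 fold change of 0.03 (95% interval -0.11 to 0.17, limma adjusted p = 0.75), and -0.0028 without SAS replicate 2. Prkcb, encoding PKC-beta, was listed at 0 in all 6 libraries. In GENCODE M21 Prkca shares 30 exon bases with Apoh on the opposite strand, and Prkce 472 bases with the same-strand locus AC154542.1, so reads there could count for either gene.

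The second atypical member, Prkcz, encodes PKC-zeta and, from an internal start, the kinase fragment PKM-zeta known from brain. It read 3.21, 2.37 and 3.39 FPKM in vehicle and 2.57, 2.98 and 2.94 FPKM in SAS, with overlapping groups. Its log2 fold change was -0.05 (95% interval -0.27 to 0.17, limma adjusted p = 0.714), and 0.0223 without Vehicle replicate 3. Gene-level values do not separate its 5 annotated protein-coding transcripts. Prkcz also shares 18.3% of its 31-base words with the processed pseudogene Prkcz2, which has no row in the table used here, and its values are therefore uncertain. Between Prkcq and every other member no 31-base word was shared. Prkca and Prkcb shared 8.

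**Figure D2:**
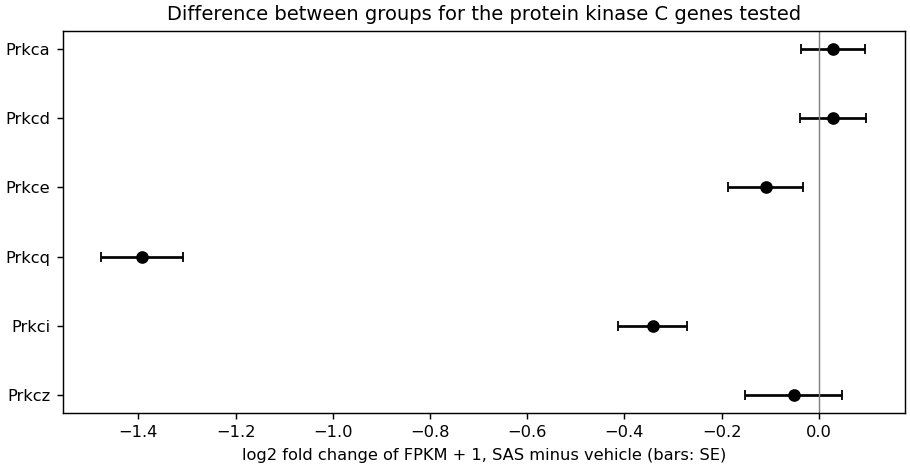
Log2 fold change of FPKM + 1, SAS minus vehicle, for the 6 members tested; points are limma estimates and bars are SE. Prkcq lies at -1.39 and Prkci at -0.34, while the other 4 genes lie between -0.11 and 0.03.

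The order of the family differed between the groups at its top. In vehicle, Prkcq led at 25.05 FPKM, followed by Prkcd at 9.06, Prkci at 8.2, Prkcz at 2.99, Prkce at 2.56 and Prkca at 1.54 FPKM. Neighbouring ranges in this order were apart except for Prkcz and Prkce, which overlapped. In SAS, Prkcd led at 9.27 FPKM and Prkcq followed at 8.91 FPKM, with overlapping ranges, ahead of Prkci at 6.26 FPKM. The lower places kept their order, with neighbouring ranges apart. Within libraries, the ratio of Prkcq to Prkcd was 2.54 to 3.18 in vehicle and 0.927 to 0.984 in SAS. The ratio of Prkcd to Prkci was 1.08 to 1.15 in vehicle and 1.45 to 1.52 in SAS.

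Summed over the 8 members, PKC mRNA was 49.4 ± 2.16 FPKM in vehicle and 31.2 ± 2.16 FPKM in SAS. Without Prkcq the sums were 24.4 ± 0.566 and 22.3 ± 1.42 FPKM. Prkcq therefore made up 50.6 ± 2.97% of the summed family FPKM in vehicle and 28.5 ± 0.779% in SAS. The share of Prkcd was 18.4 ± 1.19% and 29.7 ± 0.107%, and that of Prkci 16.6 ± 0.845% and 20.1 ± 0.516%. The Prkci share was higher in SAS although its level was lower, since the shares add up to a fixed total. These figures rest on the Prkcq difference that chose the family and describe mRNA, not kinase protein or activity.

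**Figure D3:**
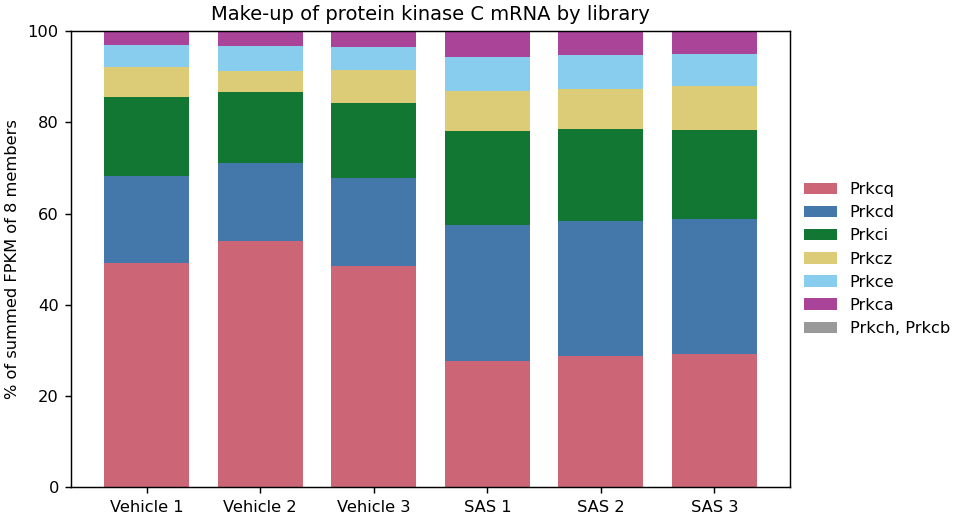
Percent of the summed FPKM of the 8 members held by each gene, 1 bar per library. Prkcq takes 48.6 to 54.0% in the vehicle libraries and 27.7 to 29.2% in the SAS libraries, where Prkcd takes 29.7 to 29.8%.

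Of all tested genes with a symbol and at least 5 FPKM in the higher group, those whose centred log2(FPKM + 1) profiles over the 6 libraries lay nearest to Prkcq were Vgll3, Cyp26b1 and Nr2f2. Vgll3, a cofactor of TEAD transcription factors, read 30.74, 33.0 and 27.66 FPKM in vehicle and 9.95, 12.56 and 11.3 FPKM in SAS, a root mean square difference of 0.043 from Prkcq. Cyp26b1, which degrades retinoic acid, read 5.91, 7.16 and 6.42 FPKM and 1.6, 2.07 and 1.87 FPKM, a difference of 0.051. The nuclear receptor gene Nr2f2 read 13.39, 16.34 and 14.73 FPKM and 5.4, 7.44 and 6.7 FPKM, a difference of 0.175. In Prkcq, Vgll3, Cyp26b1 and Nr2f2 alike, vehicle replicate 2 was the highest vehicle library and SAS replicates 1 and 2 were the lowest and highest SAS libraries, a likeness the measure itself selects.

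Around the kinases, 11 lists with 91 genes covered producers, removers and other receptors of diacylglycerol with their relatives, PKC partners and PKC substrates. Of 60 genes tested in them, 6 rose and 16 fell by limma, together 36.7%. Over all genes tested 37.4% changed, 18.9% upward and 18.5% downward. The changed share of the lists was thus near that of all genes tested. Rises in the lists were fewer, and falls more, than the shares over all genes give, and both counts moved with the setting. The lists were chosen with earlier results of these data known, so nothing is read from this split. The median log2 fold change was -0.07 against -0.01 over all genes tested. The number that fell was 9 without Vehicle replicate 1, 10 without Vehicle replicate 2 and 10 without SAS replicate 3. Over all genes tested, 1389, 1332 and 1470 fell in the same settings, against 1963 in the main fit. The list number was also 10 when the fit was limited to a mean of 5 FPKM or more (1389 over all genes). It was 18 with quantile normalization (2178 over all genes) and 21 with array weights (2366). With no filter on low values, 10 rose and 12 fell, against 1891 and 1714 over all genes.

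Upstream stand the enzymes that make diacylglycerol. Of 14 phospholipase C genes, 6 were tested, 0 rose and 2 fell (33.3% changed against 37.4% of all genes tested, median log2 fold change -0.07). The most abundant, Plcb3, a target of Gq proteins, read 23.0 ± 0.956 FPKM in vehicle and 25.5 ± 1.33 FPKM in SAS (limma adjusted p = 0.0942). Plcd3 fell from 2.25 ± 0.101 to 1.78 ± 0.235 FPKM (limma adjusted p = 0.038) and Plcb4 from 0.973 ± 0.0513 to 0.703 ± 0.0351 FPKM (limma adjusted p = 0.0189). Neither call held in every setting. Plcd3 lost its call without Vehicle replicate 1, 2 or 3 (limma adjusted p = 0.0652, 0.0887 and 0.0938), without SAS replicate 1 or 3 (0.125 and 0.0824), with no filter (0.0812) and with a common FPKM sum (0.0546). Plcb4 lost its call without Vehicle replicate 1 or 2 or SAS replicate 3 (limma adjusted p = 0.0543, 0.059 and 0.0634). Its log2 fold change was -0.21, and -0.42 with a pseudocount of 0.1.

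Of 7 Gq protein and IP3 receptor genes, 4 were tested, 1 rose and 1 fell (median log2 fold change -0.10). Gnaq, encoding the alpha subunit of Gq, read 4.41, 4.65 and 4.38 FPKM in vehicle and 3.18, 3.45 and 3.36 FPKM in SAS (limma adjusted p = 0.00257). The groups were separated. Its more abundant relative Gna11 read 64.8 ± 2.22 and 67.6 ± 2.12 FPKM (limma adjusted p = 0.407). The calcium channel gene Itpr2 rose from 0.803 ± 0.0603 to 1.21 ± 0.101 FPKM (limma adjusted p = 0.00566), with a log2 fold change of 0.29 that became 0.53 with a pseudocount of 0.1.

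Of 10 genes of diacylglycerol kinases, which remove the lipid, 5 were tested, 0 rose and 1 fell (median log2 fold change -0.07). The changed share was 20.0% against 37.4% of all genes tested. Dgkd fell from 7.6 ± 0.306 to 6.18 ± 0.423 FPKM (limma adjusted p = 0.0143), a call lost without Vehicle replicate 1 or 2 (0.0589 and 0.0517). Of 9 genes of other diacylglycerol receptors, 4 were tested, 1 rose and 1 fell (median log2 fold change -0.01). Rasgrp2, an exchange factor for RAP1, read 2.18, 2.21 and 2.47 FPKM in vehicle and 0.93, 1.3 and 1.39 FPKM in SAS (log2 fold change -0.58 with SE 0.09 and limma adjusted p = 0.000509). The groups were separated, and the log2 fold change was -0.89 with a pseudocount of 0.1. Chn2, encoding a RAC-inactivating chimaerin, rose from 11.05 ± 0.429 to 13.7 ± 1.31 FPKM (limma adjusted p = 0.0138), a call lost without Vehicle replicate 1 (0.057) or SAS replicate 2 (0.0522).

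Among related kinases, 1 of 3 tested PKN genes fell and 0 rose (33.3% changed against 37.4% of all genes tested, median log2 fold change 0.08). Pkn2, a kinase with a PKC-like catalytic domain, fell from 2.86 ± 0.41 to 2.2 ± 0.122 FPKM (limma adjusted p = 0.0291). Its call was lost with no filter (0.0802), without Vehicle replicate 1 or 2 (0.0531 and 0.107) and without SAS replicate 2 or 3 (0.0871 and 0.0598). Of the 3 protein kinase D genes, which act below PKC, 2 were tested and 0 changed, against 37.4% of all genes tested (median log2 fold change -0.03). Prkd2 gave a limma adjusted p = 0.147 and Prkd3 0.0794, with unadjusted p = 0.077 and 0.0344.

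Of 10 genes acting in PKC maturation and dephosphorylation, all were tested, 0 rose and 2 fell (median log2 fold change -0.09). The changed share was 20.0% against 37.4% of all genes tested. Cdc37, a kinase-loading partner of HSP90, fell from 300.2 ± 5.85 to 253.7 ± 11.7 FPKM (limma adjusted p = 0.00503). Hsp90aa1, a stress-inducible HSP90, fell from 90.8 ± 7.97 to 77.3 ± 4.73 FPKM (limma adjusted p = 0.0278). Its more abundant relative Hsp90ab1 read 1685 ± 121 FPKM in vehicle and 1644 ± 112 FPKM in SAS (limma adjusted p = 0.738). The Hsp90aa1 call was lost with no filter (0.072), without Vehicle replicate 1 or 2 (0.0789 and 0.123) and without SAS replicate 2 or 3 (0.0548 and 0.0949). Of 7 anchoring protein genes, 5 were tested, 1 rose and 2 fell (60.0% changed against 37.4% of all genes tested, median log2 fold change -0.13). Pick1, encoding a PDZ protein that binds PKC-alpha, read 11.68, 11.07 and 11.48 FPKM in vehicle and 16.77, 17.81 and 16.73 FPKM in SAS (log2 fold change 0.54 with SE 0.06 and limma adjusted p = 7.71e-05). The groups were separated. Akap12, a scaffold of PKC and PKA, fell from 4.71 ± 0.401 to 3.44 ± 0.499 FPKM (limma adjusted p = 0.0102). Cavin2, a caveolar PKC-binding protein, fell from 5.76 ± 0.832 to 4.37 ± 0.144 FPKM (limma adjusted p = 0.0138), a call lost with no filter (0.0508).

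Of 11 genes of partners of the atypical isoforms, 10 were tested, 1 rose and 3 fell (median log2 fold change -0.07). The changed share was 40.0% against 37.4% of all genes tested. Wwc1, encoding the Hippo pathway scaffold KIBRA that binds PKC-zeta, read 10.73, 11.27 and 10.13 FPKM in vehicle and 5.11, 6.95 and 5.59 FPKM in SAS (log2 fold change -0.77 with SE 0.09 and limma adjusted p = 0.000135). The groups were separated. Pard6g, an adaptor of atypical PKC in the polarity complex, fell from 2.87 ± 0.0839 to 2.01 ± 0.295 FPKM (limma adjusted p = 0.00436). Its more abundant relative Pard6a read 6.16 ± 0.43 FPKM in vehicle and 6.66 ± 0.638 FPKM in SAS (limma adjusted p = 0.373). Pard3, a partner of Pard6g, fell from 6.78 ± 0.593 to 5.67 ± 0.321 FPKM (limma adjusted p = 0.0428). The Pard3 call was lost with no filter (0.0892), with a common FPKM sum (0.0722), without Vehicle replicate 1 or 2 (0.152 and 0.139) and without SAS replicate 1 or 3 (0.0854 and 0.128). Sqstm1, encoding the autophagy receptor p62 that binds atypical PKC and is also an NRF2 target, rose from 671.8 ± 19.97 to 906.8 ± 32.7 FPKM (limma adjusted p = 0.000199).

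Of 12 PKC substrate genes, 8 were tested, 2 rose and 3 fell (62.5% changed against 37.4% of all genes tested, median log2 fold change -0.02). Marcks, whose product binds actin and membranes and is released from the membrane by PKC, read 50.52, 52.16 and 49.96 FPKM in vehicle and 34.27, 37.92 and 34.74 FPKM in SAS (log2 fold change -0.50 with SE 0.06 and limma adjusted p = 9.37e-05). Its relative Marcksl1 fell from 258.3 ± 5.46 to 192.5 ± 4.17 FPKM (limma adjusted p = 0.000111). Both genes had separated groups. The tyrosinase gene Tyr, whose enzyme PKC-beta activates, read 68.94, 64.48 and 77.87 FPKM in vehicle and 110.65, 107.57 and 133.88 FPKM in SAS (log2 fold change 0.73 with SE 0.09 and limma adjusted p = 0.000143). Prkcb itself was listed at 0 in the same libraries, and a link between Prkcb and the Tyr values was not tested. Tyr is also 1 of the pigment cell markers that rose. Add1, encoding a membrane skeleton protein, rose from 30.6 ± 0.899 to 34.7 ± 1.16 FPKM (limma adjusted p = 0.028), a call lost without Vehicle replicate 1, 2 or 3 (0.0523, 0.0975 and 0.0601) or SAS replicate 2 (0.0907).

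Of 5 genes of the CARD-BCL10-MALT1 complexes, through which PKC isoforms reach NF-kappaB, 3 were tested. By limma 0 changed, against 37.4% of all genes tested, with 1 at an unadjusted p under 0.05 (median log2 fold change -0.08). Bcl10 read 14.4 ± 1.26 FPKM in vehicle and 12.7 ± 0.715 FPKM in SAS (limma adjusted p = 0.105, unadjusted p = 0.0497).

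**Figure D4:**
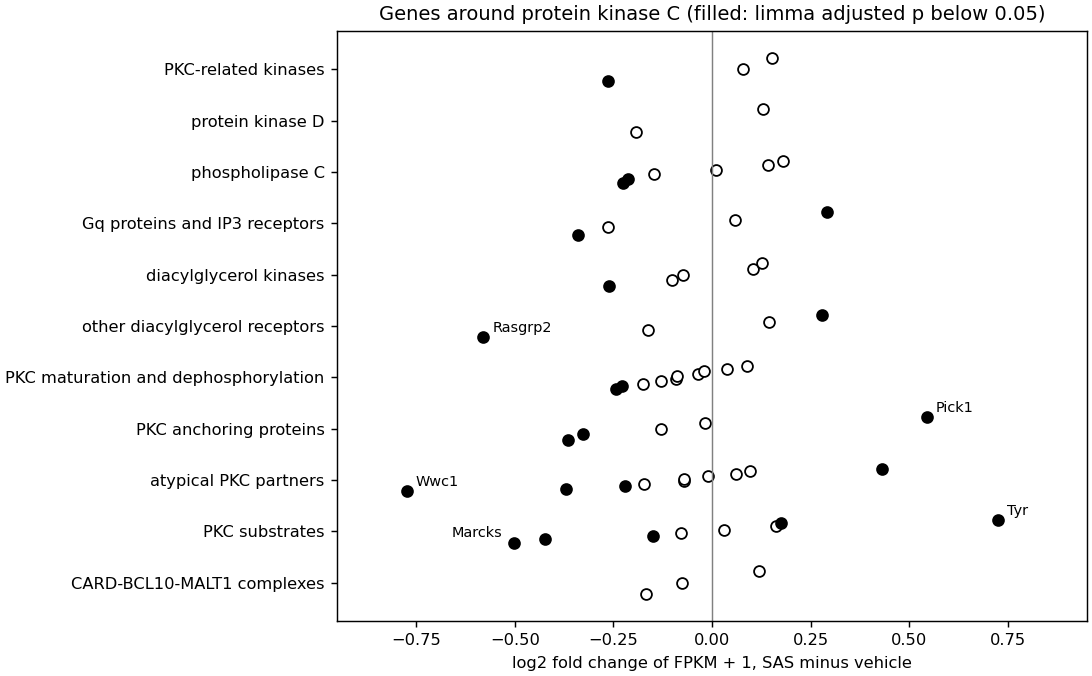
Log2 fold change of FPKM + 1, SAS minus vehicle, for each tested gene of the pathway lists, grouped by list; filled points passed limma at an adjusted p below 0.05. Wwc1, Rasgrp2 and Marcks lie farthest to the left, at -0.77, -0.58 and -0.50 (with a pseudocount of 0.1, Rasgrp2 passes Wwc1, at -0.89 against -0.86), and Tyr and Pick1 farthest to the right, at 0.73 and 0.54.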

How the data were processed

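RNA libraries were made with BGISEQ-500 protocols, per the labels' protocols. The authors deposited FPKM to 2 decimals, 1 column per library, per the file headers. Per the submitters' processing notes, the tools listed were FastQC, HISAT and Bowtie2, with no version. The FPKM program, build and annotation were not given in the sources used here. Columns named 24 h were taken as SAS and those named 0 h, by elimination, as vehicle. Labels do not say that replicates were separate cultures, and a p-value then reflects spread that may be purely technical. Depth is unknown, since whole-read steps (tolerance 0.15) were seen in 3 of the 15 low genes examined.

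The 10615 genes averaging 0.5 FPKM or more were fitted as log2(FPKM + 1) in limma 3.58.1 (R 4.3.3) with an intensity trend, adjusting p over all of them by Benjamini-Hochberg (threshold 0.05). The fit was also run on simulated data with independent noise and few changed genes. These data have many called genes and perhaps technical replicates, so that run does not vouch for the p-values given. Fold changes on this scale understate those of low genes. Symbols matched 16206 identifiers (99.3%) in RefSeq, GRCm38.p6, and transcripts and overlaps came from GENCODE M21. Members and lists were chosen with earlier results of these data known. All members are named, in each list up to 4 changed genes with the largest absolute log2 fold change plus unchanged ones needed beside them, and the 3 genes nearest to Prkcq. Lck, Lyz2, Ckm, Myh4 and the unchanged genes were picked after their values were seen. Other settings tried were no filter, a 5 FPKM filter, pseudocounts of 0.1 and 0.5, median-ratio size factors, a common FPKM sum, quantile normalization, a replicate block, no trend, robust estimation, array weights and each library left out. Python 3.11.15, pandas 2.3.3 and matplotlib 3.10.9 made tables and plots. Some genes of the lists are not reported here.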

Additional observations from a re-analysis of the deposited data

How the results depend on the processing

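The Prkcq log2 fold change ranged from -1.48 to -1.31 and that of Prkci from -0.39 to -0.31 over the 17 alternatives, with the Prkci call kept in each (limma adjusted p from 0.000866 to 0.0218). No other member was called in an alternative that gave it a value. Signs of uncalled members turned without 1 library: Prkca to -0.0028 and Prkcd to -0.0175 without SAS replicate 2, and Prkcz to 0.0223 without Vehicle replicate 3. With 1 library left out they reached at the other end 0.0554, 0.0662 and -0.1684. Prkce ranged from -0.1503 to -0.0484 over the alternatives. Genes higher in SAS numbered 1398 to 2413 and genes lower 1332 to 2366, within 1.5 times 2006 and 1963. Pathway list genes that rose numbered 10 with no filter, when more low genes were tested, and those that fell 12. Those that fell numbered 10 at a mean of at least 5 FPKM, when fewer were tested, and 9 to 15 with 1 library left out. With quantile normalization 18 fell, and with array weights 21. Those that rose numbered 4 without Vehicle replicate 1 or SAS replicate 2. The deviations of same-numbered libraries from their group means correlated at -0.08, 0.145 and 0.234, so the numbers were not taken to pair the samples. The replicate block gave 2187 genes higher and 2158 lower and a Prkci log2 fold change of -0.34 (limma adjusted p = 0.00384). The replicate block changed no call among the tested members and the named pathway genes that were called. It gave 17 pathway list genes that fell, against 16. Unknown depth and values to 2 decimals limit what can be read of Prkch and Prkcb.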
